A study of Homo sapiens with 15 samples.

Results

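Ribosome footprints of a single library made from the total lysate of MCF-10A cells, with no siRNA named in its labels, were compared with footprints of 3 libraries from MCF-10A cells given a control siRNA. A gene was kept where it had at least 100 counts in the total lysate library or in the mean of the control libraries, which left 3429 of the 20248 genes in the deposited footprint table. Of these genes, 2070 reached 100 counts in both, 440 in the total lysate library alone and 919 in the control mean alone. The total lysate library holds all footprints of 80S ribosomes from its lysate and is the companion of 2 libraries of ribosomes bound to eIF3B or to eIF3E. The control cells received 20 nM of control siRNA for 72 h. The series as a whole set cells given an siRNA against eIF3e, a subunit of the translation initiation factor eIF3, beside these controls, and the 3 footprint libraries of the eIF3e siRNA cells enter the test only to estimate the spread. All cells shared, per the labels, DMEM/F12 medium with 0.5 mg/mL hydrocortisone, 10 µg/mL insulin, 20 ng/mL EGF and 5% serum. The same siRNA treatment text also stands under the total lysate library, although its own label names neither siRNA. Whether its cells were transfected is therefore not stated.

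MCF-10A is an immortal, non-tumour line of human mammary epithelial cells of basal type, which divides in response to EGF and can turn on genes of stratified epithelium. Ribosome profiling sequences the short stretch of mRNA that each ribosome shields from nuclease, so that the number of footprints on a gene follows both the amount of its mRNA and how often it is translated. The footprint profile of a culture carries marks of its growth state: dividing cells translate histone, replication and spindle genes, differentiating epithelial cells translate junction and barrier genes, and cells that respond to interferon translate its target genes.

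The library of interest stands alone. The kind of culture, the experiment and the single library cannot be told apart, and a permutation of 1 library against 3 cannot reach a one-sided p below 0.25. The series lists no total RNA library for the total lysate cells, so that the footprint differences cannot be divided into mRNA and translation. Counts assigned to genes summed to 1224606 in the total lysate library, against 2577895, 2138244 and 1889543 in the control libraries. Levels are given as scaled CPM, which is CPM with the TMM factors of edgeR applied, and 3 counts correspond to 1.65 scaled CPM in the total lysate library. The factor of the total lysate library was 1.48, against 0.901, 0.969 and 1.01 in the controls, so its scaling weighs on every fold change below. The 50 most abundant genes took 19.6% of its counts, against 25.8%, 24.3% and 23.5% in the controls. Fold changes are total lysate over control siRNA, from edgeR's quasi-likelihood test on 10744 genes, and a gene is called at a Benjamini-Hochberg adjusted p of at most 0.05. In this test the lone library is assumed to vary like the others. Nothing in the labels says that the control libraries came from separate cultures, so p-values measure the spread between these libraries. In bulk lysates, a change in the number of cells of a kind and a change per cell cannot be told apart.

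The label of the cell line was checked against basal mammary markers, all 10 of which were members. KRT5, the basal keratin, had 3325 scaled CPM in the total lysate library, against 3236, 3419 and 4063 in the control libraries, and TP63, the basal transcription factor, had 90.3 against 46.9, 61.8 and 92.0. Neither passed the test, with adjusted p of 0.702 and 0.36, though with total counts both were called higher. EGFR, the EGF receptor, rose in the total lysate library to 1626 scaled CPM, against 1007, 873 and 863 in the controls, with a log2 fold change of 0.83 ± 0.15 (SE). ITGB4, an integrin chain of hemidesmosomes, and CDH3, P-cadherin, were lower at log2 fold changes of -0.95 and -2.00. The keratin KRT17 had the largest fall of the 10 markers, at -3.42, and the keratin KRT14 was lower at -1.17. Of the 10 basal markers, 3 were called higher and 5 lower, and their median log2 fold change of -0.47 turned to 0.16 when total counts replaced TMM. EIF3E, the target of the siRNA used in the series, had 206 scaled CPM in the total lysate library. Its level was 445, 416 and 411 under control siRNA and 61.3, 42.9 and 69.3 under eIF3e siRNA. The total lysate level lay between the ranges of the 2 siRNA groups. The log2 fold change over control was -1.04 ± 0.21 (SE; adjusted p = 0.000157), and with scaling by total counts it was -0.41 and lost the call (adjusted p = 0.111). The 13 eIF3 subunits tested, EIF3E among them, had the same median log2 fold change of -1.04, with a range of -2.10 to 0.54.

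Of the 10744 genes tested, 2687 (25.0%) were called, 936 (8.71%) higher and 1751 (16.3%) lower in the total lysate library. Among the genes with at least 100 counts, 597 (17.4%) were called higher and 1368 (39.9%) lower, of which 402 and 1041 differed by at least 2-fold. Shares of a list below are over its tested genes and stand beside the 8.71% and 16.3%. Where the members of a list are counted, the 17.4% and 39.9% apply. Genes kept through one side alone were bound to lean to that side: 330 of the 440 kept through the total lysate library alone were called higher and none lower, and 643 of the 919 kept through the control mean alone were called lower and none higher. Among the 2070 genes kept through both, 267 were called higher, 725 lower and 1078 neither. How the calls divide depends on how libraries are scaled. Once total counts took the place of TMM factors, the median log2 fold change of all genes tested moved to 0.65, against 0.02 with TMM, and 71.7% of the calls were higher, against 34.8% with TMM. Under that scaling 2573 genes were called higher and 1016 lower. The share of higher calls was 42.8% with upper-quartile factors, 49.2% when only the genes with at least 100 counts were fitted, and 44.6% with limma-voom. Fold changes also followed abundance, taken as the mean log2 level over the total lysate library and the 3 control libraries. The genes tested were split by it into 5 equal groups. The median log2 fold change was 0.50 in the least abundant group, 0.36, 0.16 and -0.03 in the next 3 and -0.55 in the most abundant. The control libraries outweigh the total lysate library in this mean, so part of the fall was fixed by the split itself. Medians of gene lists below stand beside -0.38 over the members, -0.55 in the most abundant group and 0.02 over all genes tested. Just inside the limit of 100 counts stood AAAS, AGPAT1 and ARSA, each at 100 counts, with log2 fold changes of 1.01, -0.07 and 0.41. Just outside it, at 99.7 counts, stood DGKH, FAM84A and PHC3, with log2 fold changes of -1.98, -2.33 and -0.90.

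**Figure D1:**
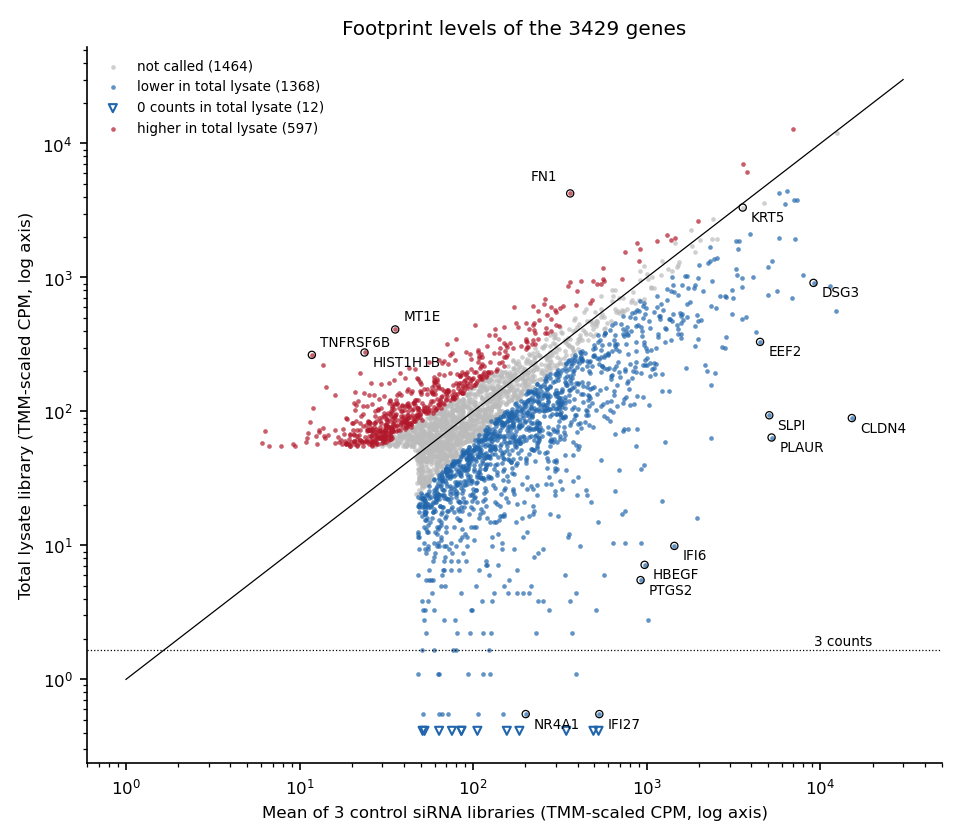
Level of each of the 3429 genes in the total lysate library (vertical, TMM-scaled CPM, log axis) against the mean of the 3 control siRNA libraries (horizontal, same scale). Red and blue points passed the test as higher (597) and lower (1368) in the total lysate library, grey points did not, and triangles at the bottom are the 12 genes with 0 counts in it; the solid line marks equal levels and the dotted line 3 counts. The sharp edges at the left and bottom of the cloud are the limit of 100 counts.

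Genes of cell division were higher in the total lysate library. Of 57 tested genes of mitosis and the spindle, 46 were called higher and none lower, with a median log2 fold change of 1.60. Of 47 replication-dependent histone genes, 35 were called higher and none lower (median 1.50), and of 46 DNA replication genes, 19 were called higher and none lower (median 1.39). The promoters of several mitotic genes are shown because the group moved together and CCAAT boxes, the binding site of the factor NF-Y, are a known feature of such promoters. The letters CCAAT were searched on both strands in the 250 bases before the annotated start of each gene in RefSeq's GRCh38.p14 table. They occurred before 37 of the 50 tested mitotic genes that matched the table (74.0%) and before 34 of 39 matched histone genes (87.2%), against 33.0% of all 27305 promoters. Another short motif of cell cycle promoters, the CHR element, searched as TTTGAA on both strands in the same windows and counted also where it overlaps CCAAT, stood before 25 of the 50 mitotic genes, against 13.6% of all promoters. The last 150 bases before the start are given in lower case, with each CCAAT or its reverse complement in capitals, for CCNB1 (chr5:69167000-69167149, plus strand), CENPF (chr1:214603045-214603194, plus strand) and KIF20A (chr5:138178962-138179111, plus strand).
CCNB1: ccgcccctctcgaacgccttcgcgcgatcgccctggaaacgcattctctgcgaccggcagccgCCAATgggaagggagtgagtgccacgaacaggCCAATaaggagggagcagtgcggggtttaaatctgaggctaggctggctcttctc
CENPF: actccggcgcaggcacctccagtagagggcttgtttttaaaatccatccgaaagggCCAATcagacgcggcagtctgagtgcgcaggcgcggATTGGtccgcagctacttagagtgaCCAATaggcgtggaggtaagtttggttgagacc
KIF20A: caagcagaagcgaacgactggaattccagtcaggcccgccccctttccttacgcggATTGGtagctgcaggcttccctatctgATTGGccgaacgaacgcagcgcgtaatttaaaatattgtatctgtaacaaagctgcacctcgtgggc
These 3 stretches hold 2, 3 and 2 copies. A match is a description of letters and says nothing of binding in these cells.

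CCNB1, cyclin B1, which drives entry into mitosis, had 350.2 scaled CPM in the total lysate library, against 80.5, 76.8 and 80.9 in the control libraries (log2 fold change 2.14 ± 0.20, SE; adjusted p = 8.29e-12). CENPF, a kinetochore protein, had 320.5 against 63.3, 60.4 and 88.8 in the controls. KIF20A, a motor of the dividing cell's midzone, had 236 against 41.8, 50.7 and 74.1. In each, the total lysate library lay far above all 3 control libraries. MKI67, the proliferation antigen Ki-67, reached 459.8 scaled CPM, against 149, 162 and 219 in the controls, with a log2 fold change of 1.38 ± 0.19 (SE). Among the replication genes, all 6 subunits of the MCM helicase that opens DNA at origins, MCM2 to MCM7, were called higher. MCM3 had 162 scaled CPM, against 26.7, 23.2 and 27.9 in the controls, and MCM6 had 116 against 18.9, 16.4 and 26.3. MCM2, MCM4, MCM5 and MCM7 had log2 fold changes of 1.38, 1.67, 1.89 and 1.75. The linker histone HIST1H1B was at 275 scaled CPM, against 28.4, 23.2 and 19.4 in the controls (log2 fold change 3.53 ± 0.29, SE; adjusted p = 1.24e-13), and HIST1H1D, another linker histone, at 55.1 against 3.88, 2.90 and 13.1. The core histone H3 genes HIST1H3C, HIST1H3G and HIST1H3H had log2 fold changes of 3.02, 2.53 and 2.19. Histone genes of 1 class are nearly identical, so how their reads were divided among copies is uncertain. Sums take in all genes of a list that the footprint table holds, tested or not. Mitotic genes held 6554 scaled CPM in the total lysate library, against 2212, 2267 and 2847 in the controls. Histones held 4934 against 1712, 1511 and 2045, and replication genes 2799 against 1162, 995 and 1571. The eIF3B-bound and eIF3E-bound libraries, which are selected ribosomes and no replicates, held 5230.2 and 5136 for the mitotic genes.

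Of 23 tested regulators of the G1 phase, 2 (8.70%) were called higher and 1 (4.35%) lower, with a median of 0.35. Over all genes tested the shares were 8.71% and 16.3%, so the higher share was that of all genes. CDKN1A, the p21 inhibitor of cyclin-dependent kinases, fell to 93.6 scaled CPM in the total lysate library, against 457, 378 and 319 in the controls (log2 fold change -2.04 ± 0.24, SE; adjusted p = 2.89e-09). CDK4, the kinase partner of D-type cyclins, was at 71.0, against 42.2, 28.5 and 37.8, and its call (log2 fold change 0.97) was lost without control replicate 2 and with DESeq2. RBL1, a retinoblastoma family protein with fewer than 100 counts, had 44.1 scaled CPM, against 3.01, 4.83 and 9.46. Without control replicate 1 or 3 the lower calls in this list numbered 2.

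Genes of the epithelial barrier were lower in the total lysate library, and the 3 lowest fitted fold changes among the called members were kallikreins. Kallikreins, secreted serine proteases that shed the surface of stratified epithelium, had almost no footprints there: KLK10, KLK5 and KLK7 had 0 counts. In the control libraries KLK10 had 605, 458 and 520.2 scaled CPM, KLK5 534, 514 and 431 and KLK7 370.3, 328 and 334. Against a floor of 3 counts in the total lysate library, they were at least 321-fold, 300.4-fold and 209-fold lower. KLK8 had 2 counts, against 435, 374 and 369 scaled CPM in the controls, a ratio of 359-fold lower with a 95% counting interval of 99.2 to 2963. Of 7 kallikreins tested, 5 were called lower and none higher. The eIF3B-bound and eIF3E-bound libraries had 0.483 and 3.39 scaled CPM of KLK10 and 0 counts of KLK5 and KLK7. Summed over all 10 listed kallikreins, tested or not, the eIF3e siRNA libraries held 533, 512 and 539.7. The total lysate library held 1.65 and the controls 2007, 1731 and 1690.5.

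Of 25 tested genes of the cornified envelope and squamous differentiation, 24 were called lower and none higher, with a median log2 fold change of -4.73. ZNF750, a transcription factor of terminal epidermal differentiation, had 0 counts, against 209, 184 and 161 scaled CPM in the controls, and was at least 113-fold lower. SLPI, a secreted inhibitor of leukocyte proteases, had 93.6 scaled CPM, against 6023, 5174 and 4044 in the controls (log2 fold change -5.76 ± 0.25, SE; adjusted p = 1.06e-22). SERPINB2, a serpin that inhibits plasminogen activators, had 63.9 against 2379, 2261 and 2415. PI3, the elastase inhibitor elafin, had 18.2 against 866, 754 and 614. Their adjusted p were 1.23e-21 and 4.72e-20, and in none of them did the total lysate value come near the control range. GRHL3, another factor of epidermal differentiation, had 1 count, a ratio of 193-fold lower with a 95% counting interval of 34.5 to 7633. IVL, involucrin, a cornified envelope precursor, had 3 counts, a ratio of 36.1-fold lower with a counting interval of 12.3 to 176.

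Junction genes followed, with 26 of 34 tested called lower and 1 higher (median -1.66). CLDN4, a tight junction claudin and the most abundant of them in the controls, had 89.2 scaled CPM, against 18918, 14824 and 11833 in the control libraries (log2 fold change -7.41 ± 0.27, SE; adjusted p = 7.71e-25). CLDN1, another claudin, had 16 against 2001, 1863 and 2014, and OCLN, occludin, had 21.5 against 1501, 1238 and 948. In these 3 tight junction genes the total lysate value lay far below each control value. The desmosomal cadherin DSG3 had 911 against 10633, 9007 and 7771, and the adherens junction cadherin CDH1, E-cadherin, 726 against 3059, 2770.5 and 2638. The junction gene that rose was PKP3, a plakophilin, at 108 against 43.5, 39.1 and 45.2. Summed over all 36 listed junction genes, tested or not, the total lysate library held 8916 scaled CPM, against 58989.7, 50925 and 45326 in the controls. Keratins were uneven: 6 of 12 basal and stratified keratins were called lower and none higher, while KRT5 did not pass. KRT16, a keratin of activated epidermis, had 3.85 scaled CPM, against 381, 432 and 266. KRT15, a keratin of the basal layer, had 17.1 against 592, 722 and 843, and KRT17, a basal marker, 395 against 4216, 4133 and 4369. KRT6B had a log2 fold change of -3.49 and KRT14, the partner of KRT5, of -1.17. Of the 5 simple keratins tested, KRT8 and KRT23 were called lower and KRT7 higher. KRT8 had a log2 fold change of -1.88, and KRT23, with 2 counts, a ratio of 57.8-fold lower with a counting interval of 15.9 to 479. KRT7 had 2634 scaled CPM in the total lysate library, against 1743, 1977 and 2213. The call of KRT7 (adjusted p = 0.0436) was lost without control replicate 1 or 2, without any 1 of the eIF3e siRNA replicates, with DESeq2's size factors and in the fit of the total lysate and control libraries alone. Among the S100 proteins, 5 of 12 tested (41.7%) were called lower and none higher, against 16.3% and 8.71% of all genes tested. Of the 9 members in this list 5 were lower, against 39.9% of all members. S100P had 3.30 scaled CPM, against 532, 548 and 454, and S100A14 had 112 against 889, 880.2 and 648, while the median of the group was -0.59 and changed sign with total counts.

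Luminal mammary markers were lower too, 5 of 9 tested and none higher. MUC1, an apical mucin, had 55.6 scaled CPM, against 896, 828 and 879 in the controls, and FOXA1, a luminal transcription factor, had 4.96 against 47.8, 71.0 and 77.8. Summed over all 13 listed luminal markers, tested or not, the level was 441 scaled CPM in the total lysate library. In the controls it was 2022, 1826 and 1910.1. Of 5 tested fibroblast markers, DCN, the proteoglycan decorin, rose to 238 scaled CPM, against 61.1, 62.8 and 78.8, and FBLN1, fibulin 1, fell to 346, against 2251, 1924 and 1762. FAP, a fibroblast surface protease, had 159 against 123, 96.1 and 84.1, and its call was lost without control replicate 2 or 3, with DESeq2's size factors, with its Wald test and with limma-voom. Summed over all 10 listed fibroblast markers, tested or not, the level was 763 scaled CPM in the total lysate library. In the controls it was 2443, 2099 and 1944. FBLN1 makes up most of the control sums, and the median log2 fold change of the 5 tested markers was 0.54. COL1A2, COL3A1, LUM, PDGFRA and THY1 were below the filter on counts. Of 11 endothelial and blood markers 8 were below it, PECAM1, PTPRC and CD34 among them, and CD68, a lysosomal protein of macrophages and other cells, was lower at -1.45. The part of other cell types in these differences was not tested.

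**Figure D2:**
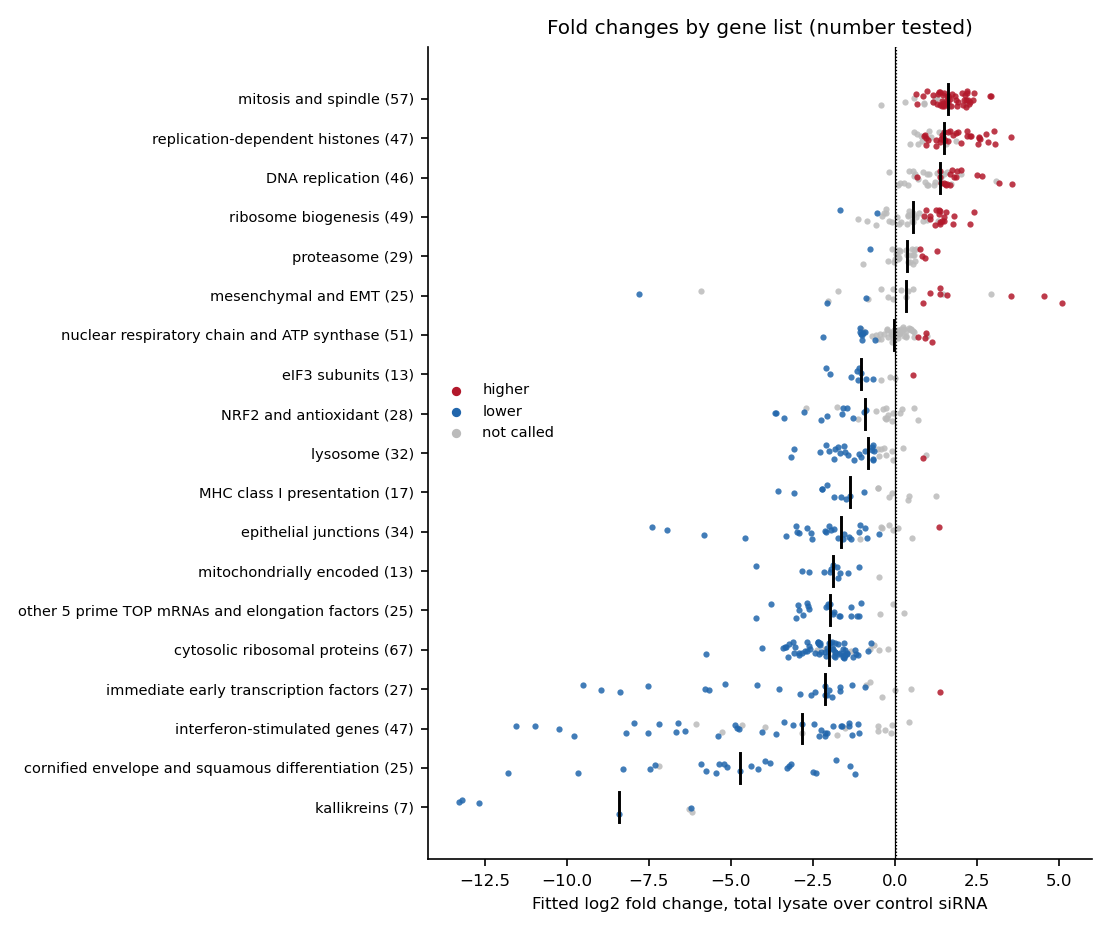
Fitted log2 fold change, total lysate over control siRNA (horizontal), of every tested gene in 19 gene lists (number tested in parentheses). Red and blue points were called higher and lower, grey points neither, thick bars are list medians, and the dotted line is the median of all genes tested (0.02). Mitotic genes centre on 1.60 and interferon-stimulated genes on -2.84; fitted values of genes with 0 counts are no measure of size.

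Interferon-stimulated genes formed the next group that was lower in the total lysate library: 34 of 47 tested were called lower and none higher, with a median log2 fold change of -2.84. With total counts, 29 were called lower and 2 higher. Such genes commonly carry an interferon-stimulated response element near their start, and promoters of 4 of the genes with low counts are shown for that reason, chosen because each holds 2 matches. The core of the element was searched as GAAANNGAAA on both strands of the 250 bases before the start in the same RefSeq table. It stood before 21 of the 37 tested interferon genes that matched the table (56.8%) and before 17 of 27 of those called lower (63.0%), against 3.07% of all promoters. The last 150 bases before the start are printed with each match, or its reverse complement, in capitals for IFIT1 (chr10:89392473-89392622, plus strand), IFI27 (chr14:94110586-94110735, plus strand), IFI6 (chr1:27672193-27672342, minus strand) and BST2 (chr19:17405631-17405780, minus strand).
IFIT1: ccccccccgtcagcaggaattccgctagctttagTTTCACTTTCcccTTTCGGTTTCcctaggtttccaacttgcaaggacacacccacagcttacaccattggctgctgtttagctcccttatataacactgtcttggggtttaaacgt
IFI27: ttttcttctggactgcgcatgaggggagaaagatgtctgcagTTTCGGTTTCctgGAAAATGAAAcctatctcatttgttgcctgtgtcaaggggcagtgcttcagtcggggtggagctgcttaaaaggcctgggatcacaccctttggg
IFI6: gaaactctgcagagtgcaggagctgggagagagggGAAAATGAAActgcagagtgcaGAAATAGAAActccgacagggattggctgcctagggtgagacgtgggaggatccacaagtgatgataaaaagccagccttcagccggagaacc
BST2: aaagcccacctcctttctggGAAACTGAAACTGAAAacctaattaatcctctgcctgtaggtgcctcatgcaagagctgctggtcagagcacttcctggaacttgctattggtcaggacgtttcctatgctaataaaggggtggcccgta
Each of the 4 stretches holds 2 matches, which overlap in BST2. In the same stretch IFI44 and IFI44L, not shown, hold 1 match each and OAS1 none.

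IFIT1, which binds RNA with a foreign cap, had 0 counts in the total lysate library, against 178, 167 and 125 scaled CPM in the controls, and was at least 95.7-fold lower. IFI44 and IFI44L, a pair of related interferon-induced genes, also had 0 counts and were at least 64.3-fold and 38.6-fold lower. IFI27, a mitochondrial protein induced by interferon, had 1 count, against 549, 524 and 527 scaled CPM in the controls. That is a ratio of 970-fold lower with a counting interval of 174 to 38323. BST2, tetherin, which holds enveloped viruses at the cell surface, also had 1 count, against 179.6, 132 and 131 (ratio 271, interval 48.6 to 10731). IFI6, a membrane protein of the response, had 9.91 scaled CPM, against 1681, 1388 and 1259 in the controls (log2 fold change -7.18 ± 0.29, SE; adjusted p = 7.52e-24). OAS1, a sensor of double-stranded RNA, had 2.20 against 230.4, 250.1 and 210.2. No value of these genes in the total lysate library came near the control values. Summed over all 50 listed genes, tested or not, the level was 1612 scaled CPM in the total lysate library. It was 1592 and 1642 in the eIF3B-bound and eIF3E-bound libraries. The eIF3e siRNA libraries held 18880.0, 18758 and 17163 and the control libraries 7654, 7664 and 7498. The total lysate library and its companion eIF3B-bound and eIF3E-bound libraries, which are no replicates, thus lay below both siRNA groups. Whether their cells were transfected is not stated, and the cause was not tested.

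Genes of MHC class I presentation, which interferon also induces, were called lower in 10 of 17 and higher in none (median -1.38). HLA-E had 143 scaled CPM, against 1459, 1299 and 903 in the controls, and B2M, the light chain of all class I molecules, 1194 against 5642, 4724 and 4659. HLA-F had a log2 fold change of -3.58; the HLA genes resemble each other closely, and how their reads were divided is uncertain. Among 31 genes of the interleukin 1 family and NF-kB chemokines, 15 were called lower and 2 higher, the chemokine CXCL1 (2.23) and the superoxide dismutase SOD2 (0.55). PTGS2, the inducible cyclooxygenase, had 5.51 scaled CPM, against 919.7, 839.6 and 1005 in the controls (log2 fold change -7.37 ± 0.31, SE; adjusted p = 2.98e-23). IL1RN, the antagonist of the interleukin 1 receptor, had 0 counts, against 48.7, 44.9 and 59.9, and was at least 30.8-fold lower. LCN2, which withholds iron from bacteria, IL18, a cytokine, and SAA2, an acute phase protein, had log2 fold changes of -3.29, -2.84 and -2.09. SAA2 shares much sequence with SAA1, so its counts are uncertain.

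**Figure D3:**
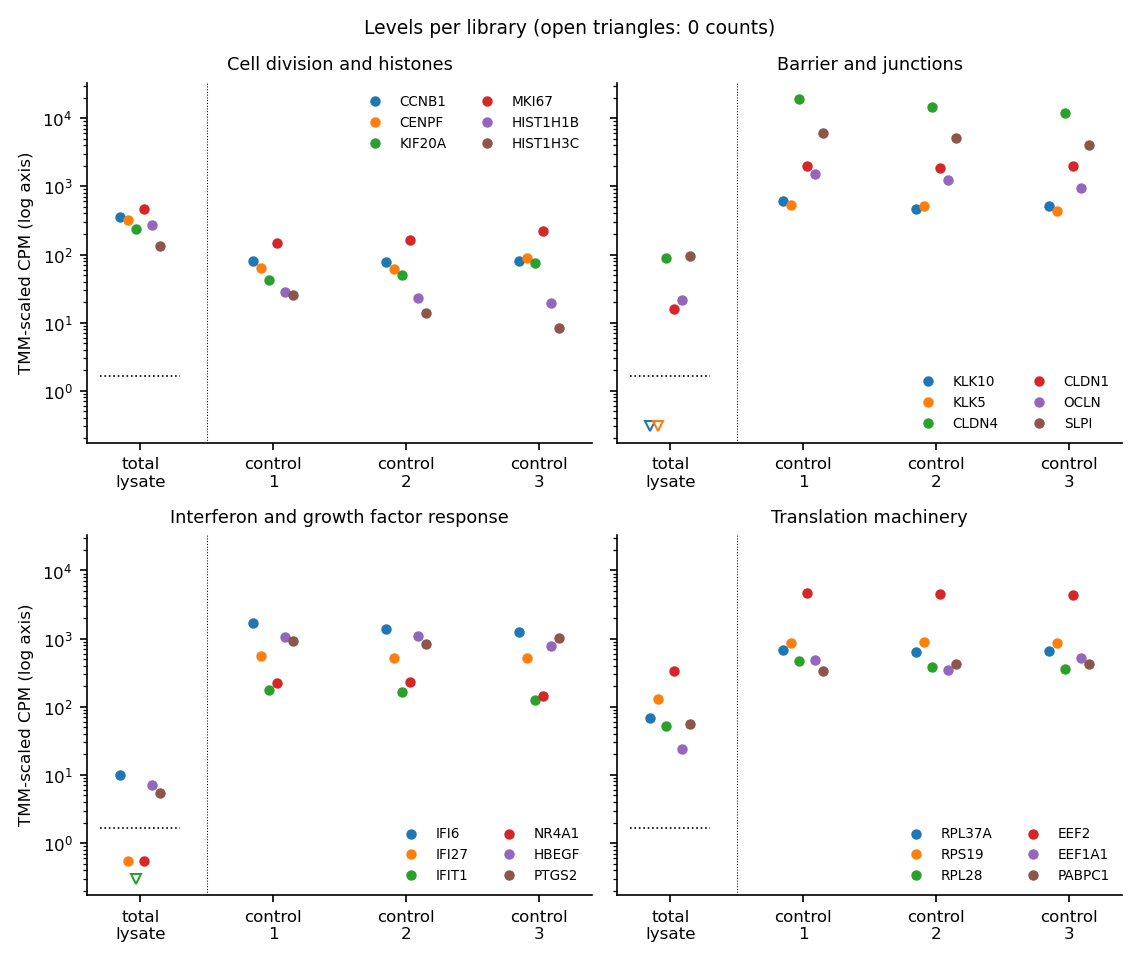
Level of 24 genes (vertical, TMM-scaled CPM, log axis) in the total lysate library, left of the dotted line, and in the 3 control siRNA libraries, in 4 panels. Open triangles mark 0 counts and the short dotted line marks 3 counts in the total lysate library. CCNB1 stands at 350.2 in the total lysate library above 80.5, 76.8 and 80.9 in the controls, while IFI6 stands at 9.91 below 1681, 1388 and 1259.

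Immediate early genes, switched on within minutes of a growth signal, were lower: 21 of 27 tested were called lower and 1 higher, with a median of -2.12. NR4A1, an orphan nuclear receptor, had 1 count, against 223, 234 and 145 scaled CPM in the controls (ratio 369, interval 66.1 to 14593). ATF3, a stress-induced factor, had 2.20 scaled CPM against 115, 115 and 111, and FOSB, a partner of JUN, 2.20 against 98.2, 77.7 and 66.2. KLF6 had 49.6 against 254, 317 and 232, and EGR1, a growth factor response gene, 25.3 against 392, 321 and 176. The total lysate value of each lay below all 3 control values. The exception was ZFP36L1, an RNA-binding protein that destabilises mRNAs, at 279 scaled CPM, against 107, 101 and 111 in the controls. Of the EGF family, its receptors and feedback inhibitors, 11 of 22 were called lower and 2 higher, the receptor EGFR and the factor ETV5 (3.64). HBEGF, a ligand of the EGF receptor, had 7.16 scaled CPM, against 1047, 1091 and 779 in the controls (log2 fold change -7.08 ± 0.33, SE; adjusted p = 1.28e-21). The ligand AREG, in contrast, had 1215 against 1044, 912 and 955 and did not pass (adjusted p = 0.135), except without control replicate 1, with total counts, with upper-quartile factors and when only the genes with at least 100 counts were fitted. The MAP kinase phosphatases DUSP5 and DUSP1, which feed back on EGF signalling, had 10.5 against 150.3, 176 and 111 and 119 against 795, 620.0 and 447. ERBB3, a receptor of the family, had a log2 fold change of -2.79. Serum, EGF and hydrocortisone concentrations are the same in the labels of both kinds of library, and no label gives the time since the last change of medium.

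Genes of the translation machinery were lower. Of 67 tested genes of cytosolic ribosomal proteins, 60 were called lower and none higher, with a median log2 fold change of -2.00 (-1.37 with total counts). Among elongation factors and other mRNAs of the same class, 22 of 25 were called lower and none higher (median -1.97), and with total counts 17 were lower and 1 higher. These mRNAs begin with a C followed by a run of pyrimidines, the 5′ TOP motif, through which growth signals act on their translation. The start of the motif, a C at most 3 bases from the annotated start followed by at least 4 pyrimidines on the gene's strand, was found in 40 of the 52 tested ribosomal protein genes that matched the table (76.9%) and in 13 of 18 of the other group (72.2%), against 13.1% of all promoters. The genes with the smallest adjusted p are shown with 10 bases before and 20 after the annotated start. Capitals mark the pyrimidine run from the first such C onward, and pyrimidines before that C stay in lower case.
RPL37A: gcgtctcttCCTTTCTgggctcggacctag
RPS19: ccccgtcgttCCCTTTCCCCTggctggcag
RPS3: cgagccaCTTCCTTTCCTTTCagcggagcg
RPL28: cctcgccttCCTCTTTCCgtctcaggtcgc
EEF2: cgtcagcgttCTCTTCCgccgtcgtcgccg
EEF1A1: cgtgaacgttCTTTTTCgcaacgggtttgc
They lie at chr2:216498834-216498863, plus strand, chr19:41860245-41860274, plus strand, chr11:75399508-75399537, plus strand, chr19:55385922-55385951, plus strand, chr19:3985444-3985473, minus strand and chr6:73521013-73521042, minus strand of GRCh38.p14 in RefSeq.

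EEF2, the elongation factor that moves the ribosome along, had 330.4 scaled CPM in the total lysate library, against 4664, 4496 and 4329.9 in the control libraries (log2 fold change -3.77 ± 0.19, SE; adjusted p = 4.23e-20). EEF1A1, which delivers aminoacyl-tRNA, had 23.7 against 483, 342 and 527. PABPC1, the poly(A)-binding protein, and EEF1D, an exchange factor, had log2 fold changes of -2.80 and -3.02. RPL37A had 68.3 scaled CPM, against 674, 647 and 648, and RPS19 had 130.0 against 868, 891 and 867. RPS3 and RPL28 had log2 fold changes of -2.59 and -2.92. In each of these genes the total lysate library was below all 3 controls. Ribosomal protein genes have many processed pseudogenes with the same sequence, and reads dropped or divided among them make their levels uncertain. Summed, ribosomal proteins held 4868 scaled CPM in the total lysate library, against 19786, 18948 and 17651 in the controls. Of the eIF3 subunits, 9 of 13 were called lower and 1 higher, the last being EIF3B at 0.54 on the log2 scale. Its call was lost without control replicate 2, with DESeq2's Wald test, with limma-voom and in the fit of the total lysate and control libraries alone. EIF3H stood at 109 scaled CPM in the total lysate library, against 472, 450.0 and 476 in the controls. EIF3L stood at 61.1 against 255, 249 and 215, and EIF3A and EIF3M at log2 fold changes of -1.13 and -1.15. With total counts, 4 eIF3 subunits were called lower and 2 higher.

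Factors that build ribosomes went the other way. Of 49 tested genes of ribosome biogenesis, 19 were called higher and 2 lower (1 lower without control replicate 2 or 3 or any 1 of the eIF3e siRNA replicates), with a median of 0.56. NOLC1, a nucleolar phosphoprotein, had 269 scaled CPM in the total lysate library, against 86.1, 102 and 99.3 in the controls, and EBNA1BP2, a factor of the large subunit, 111 against 21.1, 22.2 and 20.0. HEATR1, needed for rRNA transcription, had a log2 fold change of 1.50 ± 0.29 (SE). NPM1, the abundant nucleolar chaperone whose mRNA also starts with pyrimidines, had 34.1 against 122, 103 and 101. Aminoacyl-tRNA synthetases were mixed, 5 of 23 called higher and 3 lower. IARS, VARS and FARSB, which charge tRNAs for isoleucine, valine and phenylalanine, were higher at 1.47, 1.27 and 2.24 on the log2 scale, and QARS, for glutamine, was lower at -1.93.

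Of the 13 protein genes of the mitochondrial genome, translated by separate ribosomes inside mitochondria, 12 were called lower and none higher (median -1.88). MT-ND6 had 36.3 scaled CPM, against 867, 561 and 643 in the controls, and MT-ND4 had 698 against 3297, 3318 and 2791. MT-ND3 and MT-ND4L, further subunits of complex I, had log2 fold changes of -2.62 and -2.84. MT-ND4 and MT-ND4L overlap on 1 transcript, and their reads may be shared. Summed, these genes held 6493 scaled CPM in the total lysate library, 1853 and 2062 in the eIF3B-bound and eIF3E-bound libraries and 23770.2, 24158 and 21170.5 in the controls. Of 51 nuclear genes of the respiratory chain and ATP synthase, 4 (7.84%) were called higher and 9 (17.6%) lower, close to the 8.71% and 16.3% of all genes tested. Their median of -0.02 became 0.62 with total counts. UQCRB and COX4I1, of complexes III and IV, were lower at -2.20 and -1.05. UQCRC1 (-0.93) and NDUFA1 (-1.06) lost their calls with total counts.

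**Figure D4:**
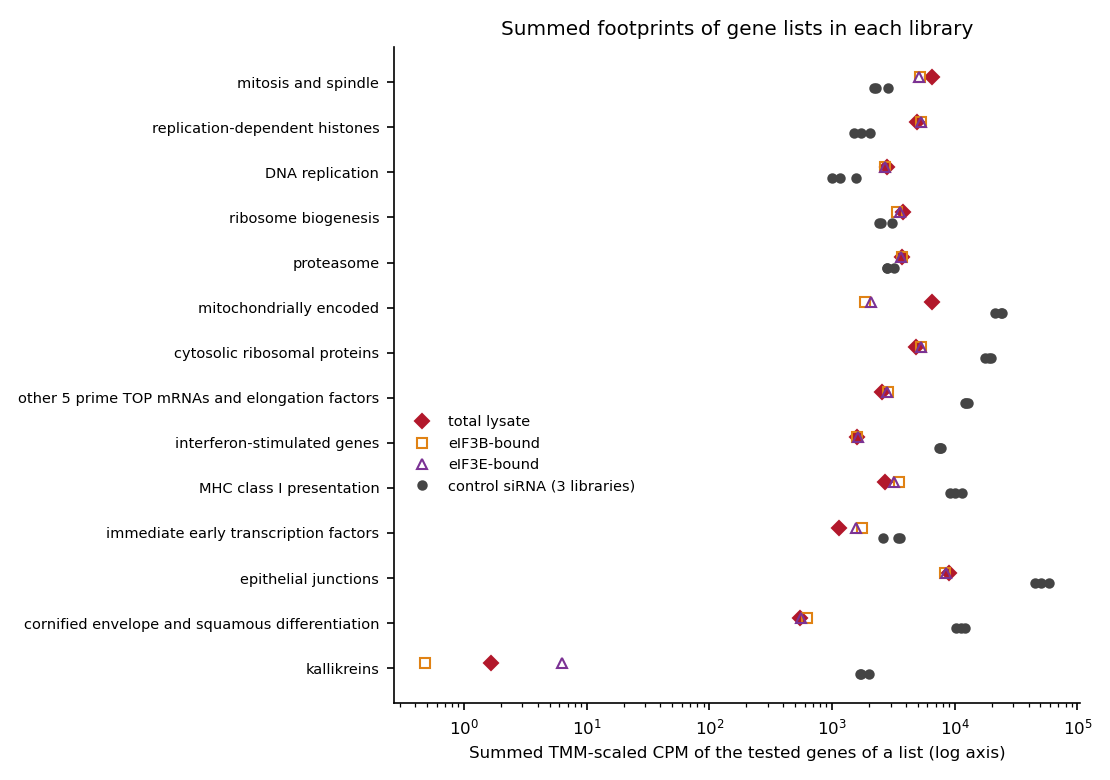
Summed TMM-scaled CPM (log axis) of 14 lists in the total lysate library (diamonds), the eIF3B-bound and eIF3E-bound libraries (open squares and triangles) and the 3 control siRNA libraries (dots). Although the axis names tested genes, the sums take in all listed genes of the footprint table, tested or not. The total lysate library lies above the controls for mitotic genes (6554 against 2212, 2267 and 2847) and below them for ribosomal proteins (4868 against 19786, 18948 and 17651). The eIF3B-bound and eIF3E-bound libraries lie below it for the mitochondrially encoded genes (1853 and 2062 against 6493), and the kallikrein sums of all 3 rest on few counts.

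Matrix and adhesion genes moved in both directions. FN1, fibronectin, had 4239 scaled CPM in the total lysate library, against 326, 315 and 446 in the controls (log2 fold change 3.55 ± 0.15, SE; adjusted p = 1.06e-22), and was among the 12 genes with the largest rise. COL8A1, a short-chain collagen, had 192 against 27.6, 14 and 25.2, and COL4A2, a basement membrane collagen, 602 against 195, 166 and 153. LAMB2, a laminin chain, fell to 454, against 1757, 1521 and 1443. ITGA2, the collagen-binding integrin chain, had a log2 fold change of -1.61. In the list of laminins and integrins, 11 of 31 were called higher and 12 lower, and its median changed sign with total counts. Of 25 mesenchymal genes, 8 were called higher and 3 lower (median 0.32). TNC, tenascin C, had 189 scaled CPM against 78.8, 55.0 and 56.2. CD44, the hyaluronan receptor, was lower at 845 against 3820.2, 3409 and 3401. SNAI2, a repressor of E-cadherin with 95 counts in the total lysate library and thus just under the limit, rose to 52.3 against 3.44, 2.90 and 0 (log2 fold change 4.55 ± 0.77, SE; adjusted p = 6.37e-06). VIM, vimentin, did not pass at 278 against 289.8, 259.8 and 315 (adjusted p = 0.877).

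In the plasminogen system and its relatives, 12 of 21 were called lower and 2 higher. With total counts 6 were called lower and 5 higher. PLAUR, the urokinase receptor, had 63.9 scaled CPM in the total lysate library, against 6027, 5296 and 4389 in the controls (log2 fold change -6.36 ± 0.25, SE; adjusted p = 3.3e-24), and its ligand PLAU had 213 against 1885, 1807 and 1339. MMP7, matrilysin, and SERPINB5, maspin, were lower at -4.88 and -2.08. F3, tissue factor, had 788 against 6062, 5455 and 5379. It stands in the list of YAP and TEAD targets. Of the 28 tested, 6 (21.4%) were called higher and 8 (28.6%) lower, or 10 and 5 with total counts. IGFBP3, a carrier of insulin-like growth factors, had 17.1 against 314, 262 and 251, MYOF a log2 fold change of -1.48 and NT5E, an ecto-nucleotidase, of 1.17. Among TGF-beta and activin genes, 6 of 26 (23.1%) were called higher and 7 (26.9%) lower, against 8.71% and 16.3% of all genes tested. INHBA, the subunit of activin A, had 87.6 scaled CPM against 13.8, 15.0 and 27.9, and FST, follistatin, which binds activin, had 6.06 against 330.3, 310.5 and 368. The ligand was thus higher and its antagonist lower in the total lysate library. LTBP1 and LTBP3, which tether TGF-beta to the matrix, moved apart, at 2.13 and -1.48. Actin and myosin genes divided into 6 higher and 8 lower of 28, with FLNA, filamin A, at 1.05, VCL, vinculin, at -1.63, TPM4 at -1.50 and ACTG1 at -1.11.

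Of 14 tested metallothioneins and zinc transporters 5 were called higher and 1 lower. MT1E, a small protein that binds zinc and copper, was among the 12 genes with the largest rise and had 409 scaled CPM in the total lysate library, against 40.9, 46.4 and 19.4 in the controls, and MT2A 445 against 117, 88.4 and 102. The eIF3B-bound and eIF3E-bound libraries had 1119 and 836 of MT1E. The metallothionein genes are near-identical copies, so their division of reads is uncertain. Zinc transporters moved apart: SLC30A1, which exports zinc and is induced by it, had 102 against 657, 516 and 365, and SLC39A10, an importer, 131 against 34.4, 28.5 and 29.4. Metallothioneins respond to glucocorticoids too, and of 16 glucocorticoid targets 5 were called higher (3 without control replicate 3) and 5 lower. GLUL, glutamine synthetase, was lower at -1.85 and ERRFI1, an inhibitor of the EGF receptor, at -1.78, while FKBP5, a chaperone partner of the glucocorticoid receptor, had 354 scaled CPM against 254, 295 and 331 and did not pass (adjusted p = 0.317).

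The other genes with the largest rise had varied roles. TNFRSF6B, a decoy receptor for FAS ligand, had 264 scaled CPM in the total lysate library, against 12.5, 9.17 and 13.7 in the controls, the largest log2 fold change of all called members at 4.48 ± 0.29 (SE; adjusted p = 7.7e-17). It shares its locus with a readthrough transcript of RTEL1, which makes its counts uncertain. FAM20C, a kinase of secreted proteins, had 223 against 10.8, 15.9 and 14.2. AOX1, aldehyde oxidase, had 71.6 against 5.17, 5.31 and 8.41, and RIPK4, a kinase of keratinocyte differentiation, 152 against 18.5, 14.5 and 9.46. KCNJ15, a potassium channel, and CDH4, R-cadherin, had log2 fold changes of 3.23 and 3.16. At the other end, CYP4F12, a cytochrome P450, ATP6V1B1, a proton pump subunit, HS3ST1, a heparan sulfate sulfotransferase, and GABRP, a GABA receptor subunit, had 0 counts in the total lysate library. They were at least 51.9-fold, 51.2-fold, 45.4-fold and 32.0-fold lower than the controls. In all, 12 of the 3429 genes had 0 counts in the total lysate library and 20 had 1 to 3.

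The lists of lipid, glucose and oxygen metabolism each held calls in both directions. In cholesterol synthesis and uptake 6 of 27 (22.2%) were called higher and 9 (33.3%) lower, against 8.71% and 16.3% of all genes tested. With total counts 12 were higher and 5 lower, and with upper-quartile factors 8 and 6. Fitted on the members alone, 10 were higher and 6 lower. FDPS, farnesyl diphosphate synthase, had 272 scaled CPM in the total lysate library, against 68.0, 74.4 and 85.1 in the controls. MSMO1, which demethylates sterols, had 491 against 1731, 1276 and 1042. Enzymes of the pathway thus moved in opposite directions, and SREBF2, its regulator, was lower at a log2 fold change of -1.33. Of 21 tested genes of fatty acid synthesis, 10 (47.6%) were called lower and 2 higher, or 1 higher without control replicate 2. The lower share was 16.3% over all genes tested. Of the 16 members in this list 10 were lower, against 39.9% of all members. With total counts 6 genes of the list were called higher and 6 lower, and its median of -0.67 became -0.04. FASN, fatty acid synthase, had 1632 against 3311, 3087 and 3609.5, and ACSL1, SCD5 and ELOVL5, which activate, desaturate and lengthen fatty acids, were at -2.15, -3.58 and -1.99. In glycolysis 5 of 23 (21.7%) were higher and 7 (30.4%) lower, led by SLC16A1, a lactate transporter, at 986 against 4354, 3556 and 2679.9. HK1 and SLC2A1, a hexokinase and the main glucose transporter, were at -1.01 and -1.04, and PFKL, a phosphofructokinase, at 1.56. Of 24 hypoxia targets 3 (12.5%) were higher and 9 (37.5%) lower, or 6 and 6 with total counts. HIF1A, the oxygen-regulated factor itself, rose to 608 scaled CPM, against 221, 209 and 234. Its target P4HA1, a collagen hydroxylase, fell to 127, against 1133, 916 and 819, and ANGPTL4, an inhibitor of lipoprotein lipase, had a log2 fold change of -2.12. Medians of the glycolysis and hypoxia lists changed sign with total counts.

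Among genes of ATF4 and amino acid stress, 3 of 30 (10.0%) were called higher and 11 (36.7%) lower. The shares over all genes tested were 8.71% and 16.3%. With total counts 8 genes of the list were higher and 4 lower. DDIT4, an inhibitor of mTORC1, had 696 scaled CPM, against 283, 270.4 and 223 in the controls, and the amino acid transporters SLC3A2 and SLC38A2 had log2 fold changes of -1.50 and -1.34. PPP1R15A, which resets eIF2 after stress, had 3.85 against 59.0, 53.1 and 39.4. In the endoplasmic reticulum 14 of 30 (46.7%) chaperone and stress genes were lower and 3 higher. DNAJB9, a chaperone cofactor, had 32.5 scaled CPM against 509, 375 and 318, and SELENOS, a selenoprotein of protein disposal, 26.4 against 250.2, 187 and 172. XBP1, a transcription factor of the unfolded protein response, and P4HB, a disulfide isomerase, were at -1.81 and -1.42 on the log2 scale. Cytosolic heat shock genes were lower in 12 (41.4%) and higher in 6 of 29, the higher calls falling to 3 without control replicate 2. HSPB1, a small heat shock protein, had 211 scaled CPM against 1309, 1059 and 955. HSPA8, a constitutive chaperone, had 224 against 735, 768 and 898, and its cofactors DNAJB1 and DNAJA1 had log2 fold changes of -2.00 and -1.44. The medians of these 3 lists changed sign with total counts. Of 28 NRF2 and antioxidant genes, 12 (42.9%) were lower and none higher. The lower shares of these lists stand beside 16.3% of all genes tested. Of their members, 14 of 26 endoplasmic reticulum, 9 of 21 heat shock and 11 of 19 NRF2 genes were lower, against 39.9% of all members. TKT, transketolase, was at 733 scaled CPM against 5645, 4987 and 4305. FTH1, the ferritin heavy chain, had 16.5 against 196, 235 and 197. FTH1 has many pseudogenes, so its level is uncertain. SQSTM1, an autophagy receptor that is also an NRF2 target, and EPHX1, an epoxide hydrolase, were at -2.07 and -2.25.

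Of 29 proteasome genes 4 (13.8%) were called higher, against 8.71% of all genes tested, and 1 lower (median 0.37), with PSMD2, of the regulatory particle, at 269.8 scaled CPM against 90.9, 112 and 132, and PSMB1 and PSMB6, of the core, at 0.82 and 0.91. The lower call of PSMB7 (-0.75) was lost with total counts and when only the genes with at least 100 counts were fitted. Of 32 lysosomal genes 22 were called lower and 1, PPT1, a thioesterase, higher (median -0.81). NPC1 and NPC2, which carry cholesterol out of lysosomes, had 342 against 1514, 1395 and 1226 and 159 against 758, 661 and 613. CTSS, cathepsin S, had 16.5 against 168, 142 and 132, and CD63, a membrane protein of late endosomes, a log2 fold change of -1.69. With total counts 13 lysosomal genes were lower and 5 higher. Autophagy genes were called lower in 5 (18.5%) and higher in 2 (7.41%) of 27, again close to the shares of all genes tested, and without control replicate 1 a single gene was higher. The receptors OPTN and NBR1 moved apart, at -1.67 and 0.89, and CALCOCO2 (-1.28) lost its call with total counts. Of 19 tested genes of IGF binding and insulin signalling, 8 (42.1%) were lower, against 16.3% of all genes tested. Of the 8 members in this list 5 were lower, against 39.9% of all members. With total counts 6 genes of the list were called higher and 4 lower. The list had 3 higher calls, and none without control replicate 2. INSR, the insulin receptor, had 23.7 scaled CPM against 65.9, 73.4 and 63.6. PDK4 and IGFBP2, both under 100 counts, were called lower and lost that call with limma-voom.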

How the data were processed

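Footprint counts per gene were used as the authors deposited them, in a table of whole-number counts for 9 footprint libraries; all 9 columns were matched to samples and 0 were left unmatched. The submitters' processing notes name cutadapt 1.18, Bowtie 1.1.2, STAR 2.5 and HTSeq and the builds hg38 and GRCh38, without their roles. Per the labels' protocols, RNase I (450 units, 45 min) was applied to 5 OD260 units of lysate and fragments of 26 to 34 nt were selected. How strands and reads with several matches were counted is not stated in the sources. The deposited table of total RNA was not used here.

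Genes were kept by edgeR's filterByExpr with a minimum count of 10, scaled by TMM, and fitted with the robust quasi-likelihood test of edgeR 4.0.16 (R 4.3.3) on 7 libraries: 1 total lysate, 3 control siRNA and 3 eIF3e siRNA (4 residual degrees of freedom). The contrast was total lysate minus control, and p-values were adjusted by Benjamini-Hochberg over all 10744 genes, two-sided, at 0.05. The design was tested on simulated data with 200 changed genes among 9975 tested. It recovered 8.96% of 1.5-fold, 59.7% of 2-fold and 97% of 4-fold changes and called 11 unchanged genes. All 7 simulated libraries, the lone one included, were drawn from the control means with the fitted spread. The simulation thus takes for granted that the lone library varies like the others and that few genes change. It cannot give the number of false calls in the real data. The eIF3-bound libraries were scaled by TMM against the total lysate library and not tested. Intervals are exact Poisson 95% intervals and, like the floor of 3 counts, cover counting error only, since reads carry no molecular identifiers. Alternatives used DESeq2 1.42.0 and limma 3.58.1, other scalings and filters, and left out each siRNA library in turn.

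The members and the 47 gene lists were chosen with earlier results of these data known, so lists are given by counts and medians without a list test. Genes were named by a rule: EIF3E, the 12 highest and 12 lowest called members outside the control range, and for each list up to 4 called members with the smallest adjusted p. Others (basal markers, MCM2, MCM5, GRHL3, IVL, CDH1, EGR1, AREG, SNAI2, VIM, FKBP5, and genes that moved against their list) were named after their values were seen. Some genes that the rule selects, and 1 of the lists, are not reported here. Promoters came from RefSeq (GRCh38.p14), matched by symbol or a synonym that names 1 gene.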

Additional observations from a re-analysis of the deposited data

How the results depend on the processing

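Of 210 genes examined singly, 205 were called, and 193 of these kept call and direction in every one of the 15 alternatives that gave them a value (10 of the 210 had a value in 14). The other 12 lost the call in at least 1, as given beside most of them. The 5 not called (KRT5, TP63, VIM, AREG and FKBP5) were all called higher with total counts, KRT5 (0.52) and VIM (0.57) with a change of sign. The number of calls per direction changed with scaling: with total counts 2573 genes were called higher and 1016 lower, and 1270 and 820 of the members. Fitted on the members alone, 1044 members were called higher and 1077 genes lower. A limit of 50 counts gave 5440 members and one of 200 counts 1944. Leaving out each of the 6 siRNA libraries in turn gave 2302 to 2800 calls in all. DESeq2's Wald test called 2431 genes, with 1250 adjusted p not given, and limma-voom 2214. Medians of 12 of the 47 lists differed in sign among scalings: YAP and TEAD targets, glycolysis, hypoxia, ATF4, endoplasmic reticulum chaperones, heat shock, nuclear respiratory chain, S100 proteins, laminins and integrins, actin and myosin, autophagy, and basal mammary markers. With total counts the balance of calls also turned in lists whose median kept its sign, cholesterol synthesis and IGF binding among them. The cause was not tested. No paired analysis was possible because the total lysate library carries no replicate number. With 1224606 counts in 1 library, absence of a call does not show that a gene was unchanged, and 3 counts, or 1.65 scaled CPM, bound what could be seen.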
